A study of Populus tremula x Populus alba with 3 samples.

Results

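Expansins, cellulose synthases and pectin-cutting enzymes build and loosen the plant cell wall. The genes described here are the rows of the authors' deposited table whose Arabidopsis description contains expansin, cellulose synthase or pectin lyase. There were 5 such rows of 318 in the authors' deposited table. They were an expansin A23 homologue, a homologue of the cellulose synthase-like gene CSLG3, 2 homologues of the cellulose synthase-like gene CSLD5, and 1 row described only as of the pectin lyase-like superfamily. None of the 5 is described as a cellulose synthase proper or as an enzyme known to cut pectin.

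RNA was sequenced from shoot apices of hybrid poplar, Populus tremula x Populus alba, clone 717-1B4, after 28 days in SD. SD is taken to mean short days, which lead to growth arrest and bud set in poplar. The over-expressor group held 2 libraries, 1 of line CsDML OX1 and 1 of line CsDML OX3, and the wild-type group held 1 library of the same clone at the same time. CsDML is taken to be a chestnut gene of the DEMETER-like family, DNA glycosylases that remove methylated cytosine. The sources used here do not give the promoter of the transgene or the number of plants behind each library. The authors joined both lines in 1 comparison with wild type, and each gene has 1 fold change, 1 mean level and 1 p-value for it. No value per library was used here, so a change carried by 1 line cannot be told from a change in both, and the spread between wild-type apices was not measured. In whole apices, fewer cells of a type and less RNA per cell cannot be told apart. The tissue could not be checked against its markers, because a gene is listed in the authors' deposited table only when its adjusted p was under 0.1.

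A growing plant cell is held by a wall of cellulose fibres set in hemicellulose and pectin. Alpha-expansins loosen the contacts between these polymers without cutting them and so let the wall stretch. Cellulose itself is made at the plasma membrane by cellulose synthases, while the related cellulose synthase-like families, named by letters, make other glycans or modify small molecules. Pectin is secreted in a methylated form, and its later demethylation and cleavage change how stiff the wall is. At the poplar shoot apex these processes accompany cell division and leaf growth, which cease as the bud forms.

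The 5 rows went both ways, with the expansin A23 and CSLG3 homologues higher in the over-expressors and the pectin lyase-like and both CSLD5 rows lower. With 0.05 as the limit on the adjusted p, the 2 higher rows rose and the pectin lyase-like row fell in the authors' deposited table. The 2 CSLD5 rows lay between 0.05 and 0.1 and are given as values. Over all 41335 genes tested, the authors' deposited table lists 318 (0.769%), of which 203 (0.491%) passed 0.05. Of those, 43 (0.104%) were up and 160 (0.387%) were down in the over-expressors, per the authors' deposited table. Because the rows were taken from the table of listed genes, their count cannot be read against that share. The median log2 fold change of the 5 rows was -1.05, beside -1.09 over all 318 rows of the authors' deposited table. The median of the 5 is the value of a CSLD5 row (Potri.014G125100) and does not describe the 2 higher rows.

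**Figure D1:**
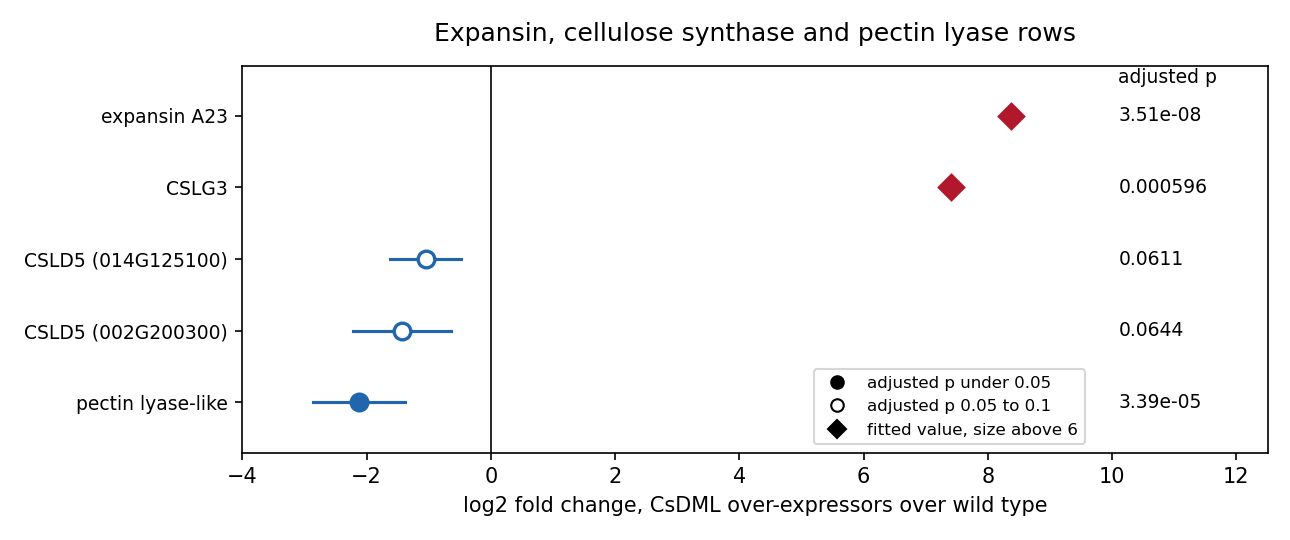
Log2 fold change of the 5 expansin, cellulose synthase-like and pectin lyase-like rows, CsDML over-expressors over wild type, with the authors' adjusted p, from their deposited table, at the right. Filled symbols have an adjusted p under 0.05, diamonds are fitted values above 6, and lines are 95% intervals worked out from fold and p. Expansin A23 and CSLG3 sit at 8.37 and 7.41, and the other 3 rows sit between -2.12 and -1.05.

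The expansin A23 homologue, an alpha-expansin by its best hit (Potri.017G092700, best hit AT5G39280, chromosome 17 by its ID), rose in the over-expressors. Its log2 fold change was 8.37 in the authors' deposited table, with an adjusted p of 3.51e-08. This was the largest log2 fold change of the 79 higher rows, and its p-value ranked 12 of all 318 rows of the authors' deposited table. The authors' deposited table gives a mean level over the libraries of 2.36 on the log2 CPM scale (CPM, counts relative to the whole library, with no correction for gene length). Worked out from this mean and the fold, for 2 over-expressor libraries and 1 wild-type library of equal depth, the level was 7.70 CPM in the over-expressors and 0.0233 CPM in wild type.

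The CSLG3 homologue (Potri.014G156200, best hit AT4G23990, chromosome 14 by its ID) also rose. In licorice and spinach, CSLG proteins include enzymes that attach a sugar acid to triterpenoids and not to a wall polymer. The role of the poplar gene is not given by its annotation. Its log2 fold change was 7.41 in the authors' deposited table, with an adjusted p of 0.000596, and ranked 6 of the 79 higher rows. Its mean level was 1.49 log2 CPM in the authors' deposited table, from which 4.20 CPM in the over-expressors and 0.0248 CPM in wild type were worked out.

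Both rises are fitted values against a wild-type library with almost no reads for the gene, and are not measured ratios. A log2 fold change above 6 was found in 15 rows of the authors' deposited table, and 14 of these had a mean level under 3 log2 CPM. Across these 14 genes, the order of the fold changes was the order of the mean levels, with expansin A23 in place 1 and CSLG3 in place 5. The wild-type level worked out from these same folds and mean levels was almost the same in all 14, between 0.0233 and 0.0277 CPM. It shows the same pattern in another way and is not separate evidence. The size of each fold thus follows from the level in the over-expressors alone. The data therefore show reads for expansin A23 and CSLG3 in the over-expressor libraries and almost none in the wild-type library. They do not give the size of the fold, and they do not rank the 2 genes by it. By mean level, expansin A23 ranked 254 and CSLG3 ranked 287 of the 318 rows of the authors' deposited table. Whether both lines contributed cannot be read from the table.

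**Figure D2:**
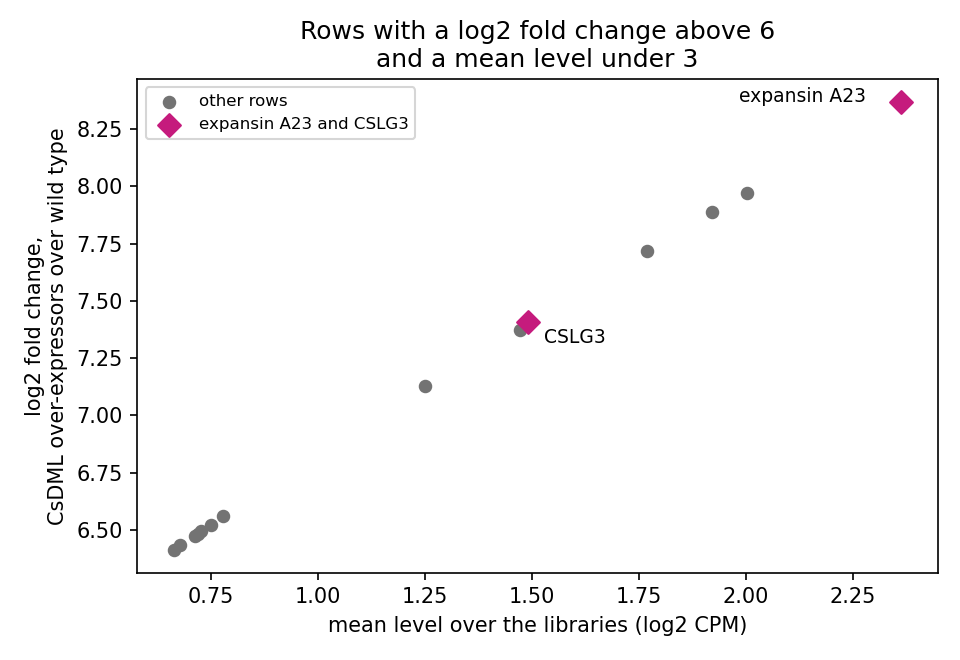
Log2 fold change, CsDML over-expressors over wild type, against the mean level over the libraries in log2 CPM, for the 14 rows of the authors' deposited table with a log2 fold change above 6 and a mean level under 3. The points form 1 rising line on which expansin A23 is the highest and CSLG3 is in place 5.

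The rows nearest to them in mean level went the other way. In the authors' deposited table the rows nearest to expansin A23 were GSL10, a callose synthase (Potri.001G012000), at -1.63 log2 units and a P-loop hydrolase (Potri.006G040700) at -1.74. Those nearest to CSLG3 were an ARM repeat gene (Potri.017G135000) at -3.06 and an F-box gene (Potri.001G210800) at -1.83 in the authors' deposited table. Within 0.5 of the mean level of expansin A23 on the log2 CPM scale, 9 of 38 rows of the authors' deposited table were higher, and none of the other 8 had a larger log2 fold change. Within 0.5 of the mean level of CSLG3, 13 of 32 rows were higher, with a median log2 fold change of 4.02, and 2 of them were above CSLG3 in the authors' deposited table. The folds of expansin A23 and CSLG3 are fitted values, so these places do not rank them by size of change. The smallest log2 fold change among the 9 higher rows near expansin A23 was 1.93, so smaller rises of weakly read genes, other expansins included, may not be listed.

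The pectin lyase-like gene (Potri.003G076900, best hit AT5G47500, chromosome 3 by its ID) fell in the over-expressors. The fold that gives this superfamily its name is shared by pectate lyases, polygalacturonases and pectin methylesterases. The description alone therefore does not say which reaction the protein carries out. What is known of the best hit beyond this description was not used here. Its log2 fold change was -2.12 in the authors' deposited table, or 4.34-fold lower, with an adjusted p of 3.39e-05. The level worked out from the mean of 2.78 log2 CPM was 3.25 CPM in the over-expressors and 14.1 CPM in wild type. A standard error worked out as if the authors' p came from a normal test was 0.38 on the log2 scale, with a 95% interval from -2.86 to -1.38. With 1 wild-type library, such an error holds no spread between wild-type replicates, and the sources used here do not say how the authors set the spread.

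Among listed rows of like level its fold was one of the larger ones. At a like level the size of a fold goes with its p-value, so this largely restates its p rank. Within 0.5 of its mean level on the log2 CPM scale the authors' deposited table had 35 lower rows, the gene itself included. Of these, 2 had a larger log2 fold change in size and 32 a smaller one, and the median size was 1.57. The rows nearest in mean level were TAF11, a subunit of a general transcription factor (Potri.003G157400), at -1.45 and a myosin XI gene (Potri.002G041800) at -1.30 in the authors' deposited table, with adjusted p of 0.0278 and 0.0859. By p-value the pectin lyase-like gene ranked 25 of 318 rows of the authors' deposited table.

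The 2 CSLD5 homologues share the best hit AT1G02730 and were both listed lower. CSLD proteins make cell wall glucan in cells that grow at their tip or divide, and CSLD5 of Arabidopsis, also named SOS6 in the authors' deposited table, acts in the new wall between daughter cells. Potri.002G200300, on chromosome 2 by its ID, stood at -1.43 (log2 fold change) in the authors' deposited table, with an adjusted p of 0.0644. The level worked out for it was 3.41 CPM in the over-expressors and 9.23 CPM in wild type. Potri.014G125100, on chromosome 14 by its ID, stood at -1.05 (log2 fold change) in the authors' deposited table, with an adjusted p of 0.0611. The level worked out for it was 13.8 CPM in the over-expressors and 28.5 CPM in wild type. Neither passed 0.05, and the called member nearest to that threshold was CSLG3.

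The standard errors worked out for these folds were 0.40 for Potri.002G200300 and 0.29 for Potri.014G125100, both on the log2 scale. The copies differed by -0.38 in log2 fold change, Potri.002G200300 minus Potri.014G125100, with a worked-out standard error of 0.50 and a 95% interval from -1.36 to 0.60. The difference was therefore smaller than its error. The sources used here do not say how reads that fit both copies were divided between them, so the 2 values may not be independent. By p-value, Potri.002G200300 ranked 246 and Potri.014G125100 ranked 238 of the 318 listed rows. Most listed lower rows of like level had larger log2 fold changes in size. Rows are listed by adjusted p, and at a like level p goes with the size of the fold. These places therefore largely restate the p rank and are not a separate result. The totals that follow count the row itself. Of the lower rows of the authors' deposited table within 0.5 of the same mean level on the log2 CPM scale, 25 of 29 had a larger log2 fold change in size than Potri.002G200300. Likewise, 38 of 46 such rows of the authors' deposited table had a larger one than Potri.014G125100.

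Other copies in the table were also lower as pairs. The authors' deposited table held 30 best hits shared by exactly 2 rows, and both rows were lower in 30 of the 30 pairs. Of the 2 best hits shared by 3 rows, 1, a histone, had rows in both directions in the authors' deposited table. The pairs are of listed rows only, and 75.2% of all 318 rows were lower in the authors' deposited table. The log2 fold changes within a pair differed by a median of 0.11, with a range from 0.000602 to 0.76. The CSLD5 pair, at 0.38, differed by more than 24 of the other pairs and by less than 5 of them. Expansin A23, CSLG3 and the pectin lyase-like gene each had a best hit that no other row of the authors' deposited table shared.

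**Figure D3:**
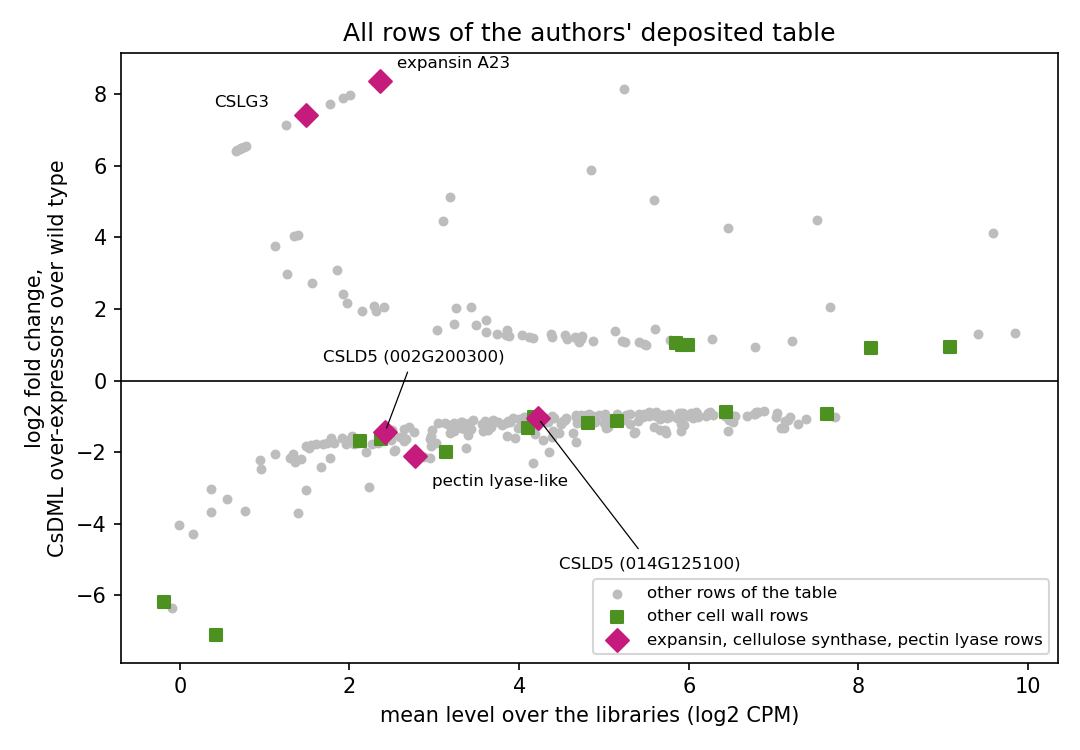
Log2 fold change, CsDML over-expressors over wild type, against the mean level over the libraries in log2 CPM, for all 318 rows of the authors' deposited table. The pectin lyase-like row lies near the lower edge of the band of lower genes and both CSLD5 rows near its upper edge, while expansin A23 and CSLG3 lie on the line of fitted values.

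Another 16 rows of the authors' deposited table belong to the wider list of cell wall genes, and those that passed the test were lower. At an adjusted p under 0.05, 9 of the 16 fell and 0 rose in the authors' deposited table. The 5 higher rows of the 16 had an unadjusted p under 0.05, as every row of the authors' deposited table has. Of all 318 rows, 160 fell and 43 rose at the same threshold in the authors' deposited table. The median log2 fold change of the 16 rows was -1.08, beside -1.09 for all 318 rows of the authors' deposited table.

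Callose synthases, which make the beta-1,3-glucan of cell plates, plasmodesmata and sieve plates, had 4 rows in the list, all lower and 3 of them past the 0.05 limit. Of all 318 rows, 75.2% were lower, and 203 passed 0.05, 160 of them lower. The 2 GSL12 rows share a best hit, so the 4 rows are not 4 separate cases. Per the authors' deposited table, GSL10 (Potri.001G012000) fell by 1.63 log2 units, with an adjusted p of 0.0255. GSL7, which in Arabidopsis makes callose of the phloem sieve plates, fell by 1.34 log2 units in the authors' deposited table (Potri.005G203500), where its adjusted p was 0.00402. The 2 GSL12 copies, whose Arabidopsis homologue acts at plasmodesmata, were at -0.95 (Potri.001G012200, adjusted p 0.0308) and -0.89 (Potri.003G214200, adjusted p 0.0745), per the authors' deposited table. Of the 4 rows described as glycosyl hydrolases or glucanases, 3 were listed higher, none of them under 0.05, and 1 was lower. GH9B13 (Potri.014G126900), of the family of endo-beta-1,4-glucanases, fell by 1.14 log2 units in the authors' deposited table, where its adjusted p was 0.0115. BG1, a beta-1,3-glucanase (Potri.016G057400), was at 0.90, a glycosyl hydrolase superfamily row (Potri.001G255100) at 0.98 and a row with a chitinase insertion domain (Potri.006G188300) at 1.04 in the authors' deposited table, with adjusted p of 0.0957, 0.0859 and 0.0563, in that order. Glucanases and chitinases also act in defence, so the descriptions of the 3 higher rows do not place them in the growing wall.

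Of genes that act on pectin and xyloglucan, PME3 (Potri.001G162500), a pectin methylesterase, fell by 1.20 log2 units in the authors' deposited table, where its adjusted p was 0.00735. XTH23 (Potri.018G095200), which cuts and rejoins xyloglucan, fell to a fitted -7.10 log2 units with an adjusted p of 9.54e-05, at a mean of 0.43 log2 CPM, in the authors' deposited table. That value, like that of MIOX4, is one of 3 below -6 in the authors' deposited table and is not a measured ratio. MIOX4 had a mean level of -0.19 log2 CPM. For both genes almost all reads lay in the wild-type group, so both falls rest on its 1 library.

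Genes that supply sugar precursors differed in direction. SUS5 (Potri.017G139100), a sucrose synthase, fell by 1.68 log2 units in the authors' deposited table, where its adjusted p was 0.0292. Inositol oxygenases make glucuronic acid, a precursor of pectin and xylan. MIOX4 (Potri.018G069700) fell to a fitted -6.19 log2 units (adjusted p 0.0357), while MIOX1 (Potri.008G144500) stood at 0.94 (adjusted p 0.0640), per the authors' deposited table. Among wall proteins, AGP1, an arabinogalactan protein, was at -1.03 (Potri.001G310400) and a row of the Ole e 1 and extensin family at 0.99 (Potri.004G114300) in the authors' deposited table, each with an adjusted p of 0.0780. The last row (Potri.009G158900) carries a LEA hydroxyproline-rich glycoprotein label, which does not place it in the wall. It stood at -1.99 log2 units in the authors' deposited table, where its adjusted p was 1.47e-05, and so fell.

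**Figure D4:**
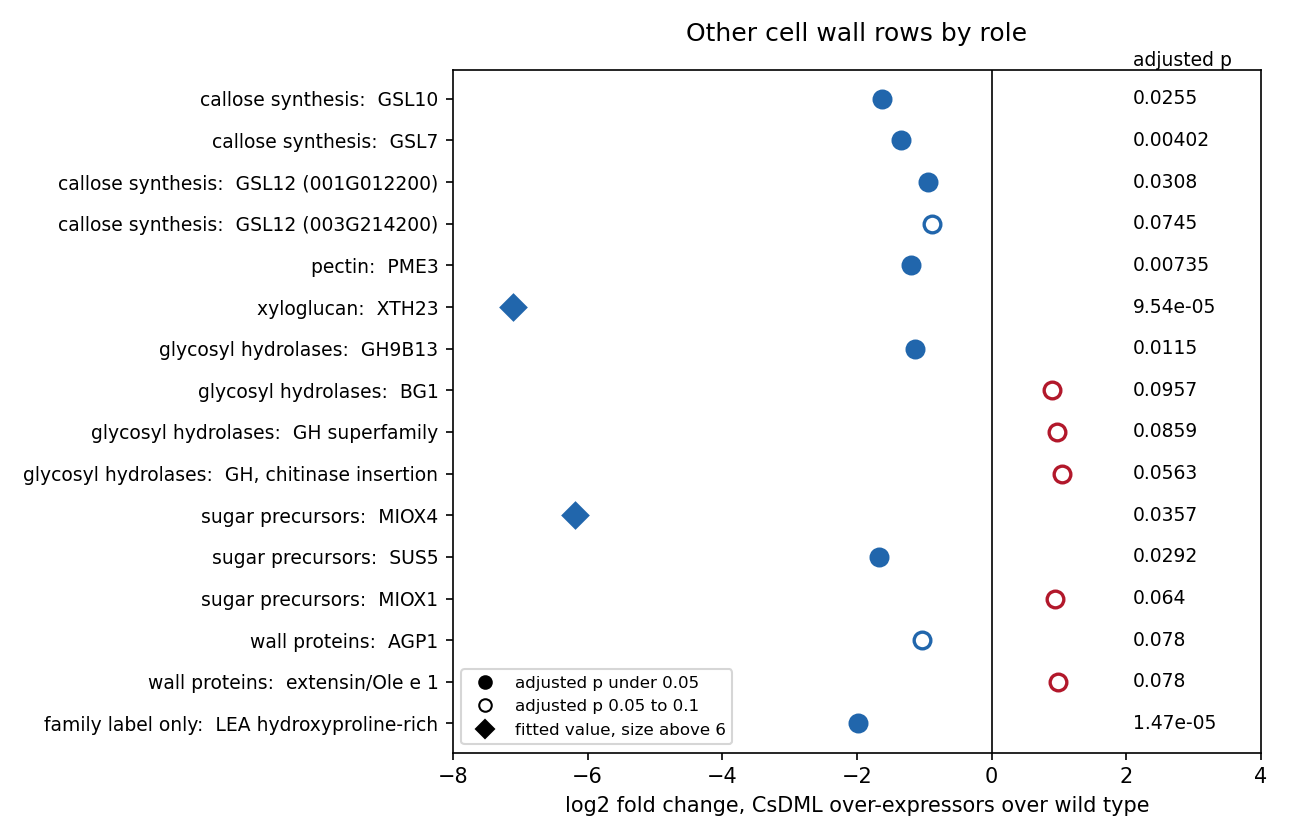
Log2 fold change, CsDML over-expressors over wild type, of the 16 other cell wall rows of the authors' deposited table, grouped by role, with the adjusted p at the right. Filled symbols have an adjusted p under 0.05 and diamonds are fitted values of a size above 6. All 4 callose synthase rows lie left of 0 and 3 of the 4 glycosyl hydrolase rows right of it, with GH9B13 at -1.14. Of all 318 rows, 75.2% were lower.

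Few rows of the tissue marker lists were in the authors' deposited table, in which 79 of all 318 rows were higher and 43 of 41335 genes tested (0.104%) rose. The xylem list, of 7 search terms, had 1 row, XCP1, a peptidase of xylem vessels, which fell by 1.75 log2 units in the authors' deposited table (Potri.004G207600). The leaf list, of 4 terms, had 2 rows of the authors' deposited table, LHCA3 and PSAO, both higher and 1 of them past the 0.05 limit. The epidermis and cuticle list, of 5 terms, had 3 rows, all higher and 2 of them past that limit. They were GLIP4 (Potri.018G063900), LTP1 (Potri.006G108100) and Potri.018G089300, which has no best-hit name. Some of the terms name whole gene families, so these rows need not mark the epidermis. The meristem list, of 5 terms, took in 2 rows of the authors' deposited table, whose best hit, HB-1, works with chromatin remodellers and does not mark the meristem. They were lower and not under 0.05. The phloem list, of 3 terms, took in 0 rows. Levels of markers that are not listed were not analysed here. Whether the make-up of the tissue differed, and its part in the wall gene values, was not tested.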

How the data were processed

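The authors sequenced 3 directional RNA libraries of apices, per the labels' protocols. Per the submitters' processing notes, the authors used edgeR, TopHat and FastQC, for which no version is listed. The sources used here do not give the build, the gene models, the counting tool or which test the authors ran. The deposited table holds, per the file headers, a log2 fold change, a mean level in log2 CPM, a p-value and its FDR adjustment per gene. Base 2 was read from the column names, and is not stated. The depth of the libraries is unknown.

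The members, gene lists and roles were chosen with earlier results of these data known. Every member and every row of the wall list is named. The wall list was taken by pattern in description or best-hit name, and a loosely worded term for glucosyltransferases was not applied. The number of tests, 41335, was recovered from p, rank and adjusted p, and recomputed Benjamini-Hochberg values matched in 318 of 318 rows (relative tolerance 1e-06). On simulated data 20000 of 20000 tests were recovered. "Rose" and "fell" mean an adjusted p under 0.05. Group levels assume 2 and 1 libraries of equal depth, and neglect the small constant that such tools add. Standard errors are the fold divided by the normal quantile of p. No test was added. Alternatives were thresholds of 0.01 and 0.1, a minimum log2 fold change of 1 in size, a minimum mean level of 1 in log2 CPM, leaving out sizes above 6, a wider pattern and another averaging of the groups. Python 3.11.15, pandas 2.3.3 and scipy 1.17.1 were used.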

Additional observations from a re-analysis of the deposited data

How the results depend on the processing

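Of the 5 expansin, cellulose synthase-like and pectin lyase-like rows, 3 were called at the threshold of 0.05. The count was also 3 at 0.01 and with the pattern also sought in the best-hit names. With a minimum size of 1 on the log2 scale or a minimum mean level of 1 in log2 CPM it was 3 as well. These last 2 limits could not change the count, because each of the 5 rows passes both. The count was 5 at 0.1, where the 2 CSLD5 rows join, and 1, the pectin lyase-like row, without fold changes above 6 in size. Of the other cell wall rows 9 were called at 0.05, 4 at 0.01 and 16 at 0.1, where 5 are higher and 11 lower. Their count was 7 or 8 under the other alternatives. At 0.1 both counts take in every row by necessity, because only rows under 0.1 are listed. Over all 41335 genes tested, 203 (0.491%) were called at 0.05 and 318 (0.769%) at 0.1. With the mean level taken as the average of the group means, the over-expressor level was 10.3 CPM for expansin A23, against 7.70 CPM for 2 and 1 libraries, and 5.58 CPM for CSLG3, against 4.20 CPM. Leaving out a line was not run, and no paired analysis was possible because the table gives 1 value per gene for the whole comparison. The depth is unknown, and rows with an adjusted p of 0.1 or more were not analysed here.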
